A study of Mus musculus with 11 samples.

Results

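The nuclear genes of the respiratory chain are the genes in the cell nucleus that encode subunits of complexes I to V of the mitochondrial inner membrane. They were taken as the protein-coding genes with a symbol of the families Nduf (a, b, c, s or v with a number), Sdh (a to d), Uqcr, Cox4 to Cox8 or Atp5, and with 10 or more counts summed over all mice. Of 38293 genes in the count tables, 20589 reached that minimum, and 83 of them were members. Complex I (Nduf) held 37 members, complex II (Sdh) 4, complex III (Uqcr) 8, complex IV (Cox) 17 and complex V (Atp5) 17. Of the 85 protein-coding genes whose symbol fitted, 84 were in the tables, and Cox8c alone of these had fewer than 10 counts. The rule goes by symbol, so a member need not be a subunit of the complex it is listed under. It put Ndufa4, now known as a subunit of complex IV, with complex I, and it did not take Ndufab1 or Cyc1.

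RNA came from the whole hippocampus of wildtype F1 offspring of 129S6/SvEv dams and C57BL/6J sires, aged 14 weeks. The dams of CD F1 mice (n = 6, 3 males and 3 females) received 2.3 mg folic acid (FA) per kg diet before mating, and those of FD F1 mice (n = 5, 2 males and 3 females) received 40 mg FA per kg diet. All mice were on the control diet from mating onwards, so that the offspring shared their own diet and differed in that of the dam before conception. The sources used here do not say how many litters the sequenced mice came from, and p-values therefore measure the spread between these mice.

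The respiratory chain turns the oxidation of nutrients into a proton gradient, which drives the synthesis of ATP. Complex I takes electrons from NADH and complex II takes them from succinate, complex III passes them on to cytochrome c, complex IV reduces oxygen, and complex V is the ATP synthase. Complex II is encoded in the nucleus alone, whereas the other complexes also contain subunits encoded by the mitochondrial genome. Neurons depend on this pathway for ion pumping and synaptic transmission, and many nuclear subunit genes carry promoter sites for the factors NRF1, GABP (an ETS factor) and YY1.

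Promoters of 68 members were found in the RefSeq table for GRCm38.p6, as windows from 250 bases before to 50 bases after the start of transcription. These windows were searched on both strands for GCGCATGCG (NRF1), CCGGAAG (ETS or GABP) and AAGATGGCG (YY1). The NRF1 letters were present in 8 of 68 members (11.76%), against 1.95% of the 27025 genes with a promoter in the table. The ETS letters were present in 16 members (23.53%, against 9.93% of all genes) and the YY1 letters in 7 (10.29%, against 1.64%). At least 1 motif was found in 26 members (38.24%, against 12.72%), and at least 2 in 5 members (7.35%, against 0.78%). These 5 were Uqcr11, Cox6a1, Atp5j, Atp5k and Atp5l. Promoters with an NRF1 and an ETS match are shown for 1 member each of complexes III, IV and V (5′ to 3′, the bases of a match to any motif in capitals). That of Uqcr11, a small subunit of complex III, lies at chr10:80406772-80407071 on the minus strand of GRCm38.p6.
Uqcr11: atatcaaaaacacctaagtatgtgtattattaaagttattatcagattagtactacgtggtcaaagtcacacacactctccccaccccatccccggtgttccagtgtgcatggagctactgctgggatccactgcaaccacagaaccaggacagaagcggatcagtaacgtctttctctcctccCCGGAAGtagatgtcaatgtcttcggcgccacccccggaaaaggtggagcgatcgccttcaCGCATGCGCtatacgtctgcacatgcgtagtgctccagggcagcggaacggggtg
That of Cox6a1, the subunit VIa form of liver and brain, lies at chr5:115348909-115349208 on the minus strand.
Cox6a1: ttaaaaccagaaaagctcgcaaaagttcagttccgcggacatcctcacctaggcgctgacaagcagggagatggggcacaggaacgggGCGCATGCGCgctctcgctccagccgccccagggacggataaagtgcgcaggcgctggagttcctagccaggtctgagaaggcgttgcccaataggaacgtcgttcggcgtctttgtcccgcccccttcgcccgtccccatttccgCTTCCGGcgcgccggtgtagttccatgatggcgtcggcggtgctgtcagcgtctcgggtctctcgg
That of Atp5l, subunit g of the ATP synthase, lies at chr9:44920693-44920992 on the minus strand.
Atp5l: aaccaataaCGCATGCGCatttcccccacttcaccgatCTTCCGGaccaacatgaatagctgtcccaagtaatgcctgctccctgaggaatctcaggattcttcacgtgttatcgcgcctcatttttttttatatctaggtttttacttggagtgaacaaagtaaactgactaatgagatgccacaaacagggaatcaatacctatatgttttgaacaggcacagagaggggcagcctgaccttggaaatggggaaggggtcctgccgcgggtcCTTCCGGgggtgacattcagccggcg
A match is a description of the letters in the window, and binding was not measured in this study.

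The members were among the well expressed genes of the hippocampus. Levels between genes were compared as TMM-normalized counts relative to library size (CPM) divided by the length of the merged exons in kilobases. The median level over the 83 members was 45.1 CPM per kilobase, against 2.49 over the 20250 tested genes with a length, and 67 members had at least 10 CPM per kilobase. The median was 45.1 in complex I, 57.8 in complex II, 65.6 in complex III, 26.9 in complex IV and 38.0 in complex V. The ranges of the complexes overlapped widely.

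**Figure D1:**
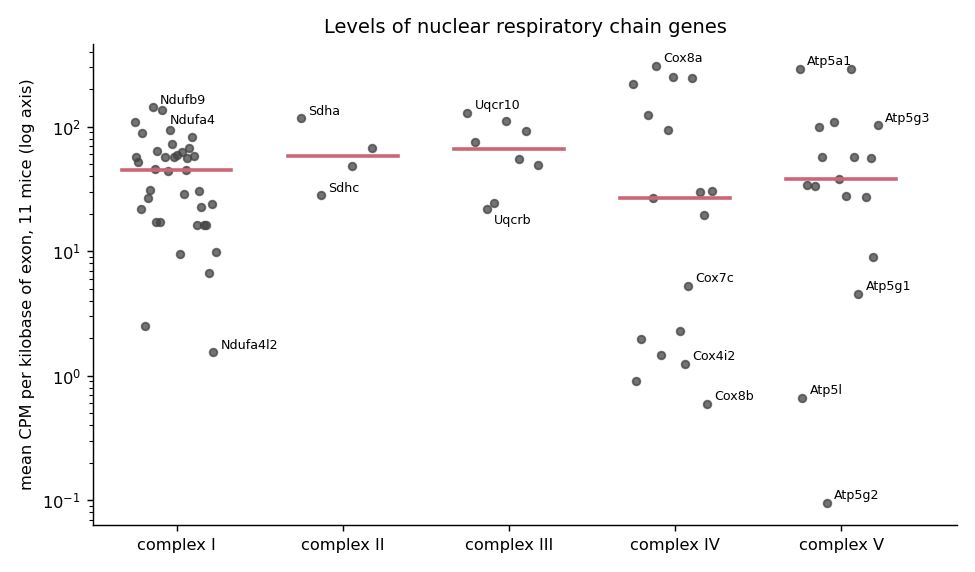
Level of each of the 83 members as mean CPM per kilobase of exon over the 11 mice, on a log axis, by complex, with the median of each complex as a bar. On this scale Cox8a had the highest level (308) and Atp5g2 the lowest (0.0951), and complexes IV and V held members at both ends of the scale.

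The highest level in complex I was that of Ndufb9 (143 CPM per kilobase), an accessory subunit of the membrane arm. In complex II it was that of Sdha (117), the flavoprotein that oxidizes succinate, and in complex III that of Uqcr10 (128), a small accessory subunit. Cox8a, a small subunit of complex IV, had the highest level of all members on this scale, with 314 ± 37.3 CPM per kilobase in CD F1 mice (SD, n = 6) and 300 ± 29.7 in FD F1 mice (SD, n = 5). The catalytic core of the ATP synthase followed, with 297 ± 24.1 in CD and 288 ± 16.9 in FD for Atp5a1 (alpha subunit) and 296 ± 23.4 and 283 ± 16.4 for Atp5b (beta subunit). Per kilobase of exon these 3 genes did not differ in level beyond their spread over mice. The order depends on the length that is used. With the 50-base windows of the principal transcript that have no copy at another locus as length, the highest level was that of Ndufa4 (338 CPM per 1000 windows, Ndufb9 226) in complex I, of Sdha (169) in complex II, of Uqcrh (247, Uqcr10 195) in complex III, of Cox4i1 (477, Cox6a1 383 and Cox8a 380) in complex IV and of Atp5b (663, Atp5a1 379) in complex V.

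Of the subunits that exist in several forms, 1 form made up most of the level in each family. Shares were taken of the summed CPM per kilobase of each family. Cox4i2, the hypoxia-responsive form of subunit IV, made up 0.566% ± 0.161 in CD and 0.561% ± 0.126 in FD F1 mice. The heart and muscle forms Cox6a2 (0.813% ± 0.149 in CD, 0.729% ± 0.148 in FD), Cox7a1 (1.69% ± 0.239 and 1.94% ± 0.952) and Cox8b (0.177% ± 0.144 and 0.207% ± 0.155) were also minor forms. Of the testis forms, Cox6b2 made up 0.502% ± 0.0773 in CD and 0.706% ± 0.106 in FD, and Cox7b2 1.21% ± 0.5 and 0.655% ± 0.408. Ndufa4l2, a hypoxia-responsive relative of Ndufa4, made up 1.18% ± 0.276 and 1.04% ± 0.119. Among the 3 genes for the c subunit of the ATP synthase, Atp5g3 made up 95.8% ± 0.491 in CD and 95.4% ± 0.591 in FD, Atp5g1 4.15% ± 0.470 and 4.47% ± 0.552, and Atp5g2 0.0878% ± 0.0624 and 0.0974% ± 0.0418. In each family the shares of CD and FD mice overlapped. The shares within the c subunit are uncertain, since 87.39% of the 50-base windows of Atp5g2 have a copy at another locus. With windows without a copy as length, a choice made after seeing the data, the shares over all mice were 97.9% for Atp5g3, 1.6% for Atp5g1 and 0.546% for Atp5g2, and the minor forms of the other families made up 0.182% (Cox8b) to 1.8% (Cox7a1).

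Several members with low values share sequence with copies elsewhere in the genome. The tables hold only reads with a single alignment, and reads of 50 bases were used. Windows of 50 bases of the principal transcript of each member were therefore looked up in the annotated transcripts of genes at other loci. At least 1 window had a copy in 35 members, and at least 30% of the windows in 8 members (Atp5g2, Atp5l, Cox7c, Atp5h, Uqcrb, Ndufb4, Ndufs3 and Ndufs5). These 8 members had a median of 1787 counts in total, against 20170 for the 48 members without any copied window. The share was 87.39% for Atp5g2 (37 counts in total), 68.48% for Atp5l (1108 counts) and 52.95% for Cox7c (1489 counts), a small subunit of complex IV. How much of their low values comes from copies was not tested, and the values of these members are uncertain. The coding sequences of Cox7c, Ndufs5 and Cox6a1 are shown, for Ndufs5 and Cox6a1 the first 300 bases. Of the windows of their transcripts, 52.95%, 31.06% and 12.26% have a copy. The whole genes span chr13:86044816-86046904, chr4:123712710-123718202 and chr5:115345642-115348981, all on the minus strand of GRCm38. A base is in capitals where the 50-base window that starts there has no copy.
Cox7c: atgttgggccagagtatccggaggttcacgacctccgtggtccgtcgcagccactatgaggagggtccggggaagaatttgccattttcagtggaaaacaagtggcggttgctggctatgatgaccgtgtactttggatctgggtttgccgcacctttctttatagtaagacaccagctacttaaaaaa
Ndufs5: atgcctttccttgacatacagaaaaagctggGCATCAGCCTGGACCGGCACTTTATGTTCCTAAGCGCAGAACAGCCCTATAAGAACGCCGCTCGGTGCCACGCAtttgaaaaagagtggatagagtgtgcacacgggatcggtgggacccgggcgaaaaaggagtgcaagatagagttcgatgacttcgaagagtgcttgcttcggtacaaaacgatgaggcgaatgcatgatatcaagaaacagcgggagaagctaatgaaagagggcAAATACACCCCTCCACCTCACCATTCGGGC
Cox6a1: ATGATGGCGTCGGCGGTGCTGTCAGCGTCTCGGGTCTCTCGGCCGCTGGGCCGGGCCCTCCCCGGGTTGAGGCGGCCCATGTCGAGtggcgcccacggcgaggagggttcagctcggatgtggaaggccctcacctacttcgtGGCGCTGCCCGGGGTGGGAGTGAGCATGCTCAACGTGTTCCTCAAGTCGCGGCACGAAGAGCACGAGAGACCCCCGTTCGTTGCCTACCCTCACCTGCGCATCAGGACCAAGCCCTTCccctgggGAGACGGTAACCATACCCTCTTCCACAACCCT
In Cox7c no window that starts in the coding sequence was without a copy. In Ndufs5 such windows started at 104 of 300 bases, and in Cox6a1 at 236 of 300.

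The libraries were compared first, since the members moved together over mice. For each gene the deviation of its log2 CPM from its mean over the 11 mice was taken, and the median over the 83 members was computed per mouse. It was 0.22 in CD female 1, 0.19 in CD female 3 and 0.12 in FD female 3. In these 3 mice 79, 77 and 76 of the 83 members lay above their mean. In the other 8 mice the median lay between -0.12 and -0.01, and between 8 and 36 members lay above their mean. The other 3 females (CD female 2 at -0.05, FD female 1 at -0.01 and FD female 2 at -0.10) lay at or near the range of the 5 males (-0.12 to -0.04). The median over all genes stayed between 0.00 and 0.02 in each mouse. The same 3 mice were also highest in other lists, described below. In the order above, the median was 0.15, 0.12 and 0.08 for cytosolic ribosomal protein genes (others at most 0.04). It was 0.18, 0.09 and 0.08 for mitochondrial mRNAs (others at most 0.01) and 0.09, 0.13 and 0.04 for assembly factors (others at most 0.001). For regulators of mitochondrial gene expression it was 0.01, -0.07 and 0.01, which did not separate these mice.

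**Figure D2:**
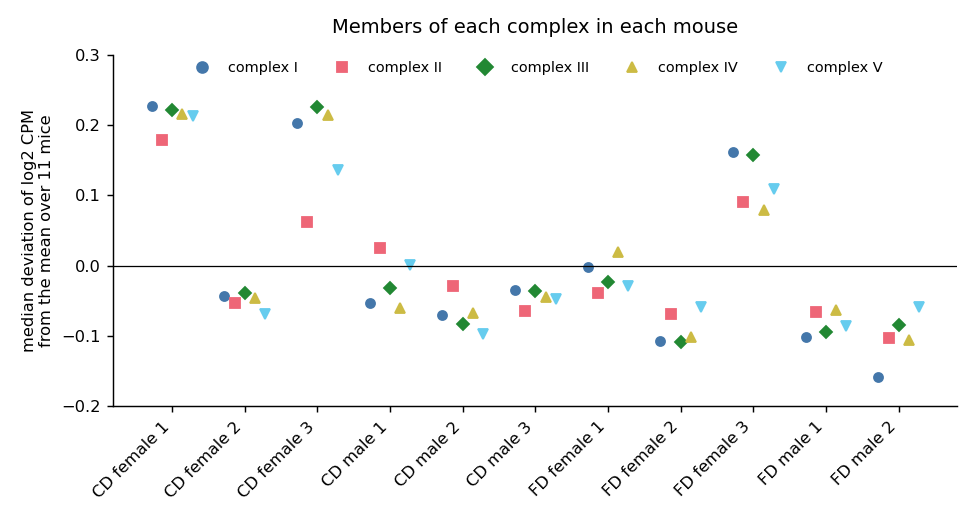
Median deviation of log2 CPM from the mean over 11 mice for the members of each complex, 1 column of points per mouse. All 5 complexes lay above 0 in CD female 1, CD female 3 and FD female 3, and complex I reached 0.23, 0.20 and 0.16 there.

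The summed level of all members was 9236 ± 804 CPM in CD and 8818 ± 578 CPM in FD F1 mice. It was 10500 CPM in CD female 1, 9953 in CD female 3 and 9777 in FD female 3, and between 8402 and 9012 in the others. Library properties moved with it. Alignments that were not single made up 16.0% of all alignments in CD female 1, 15.6% in CD female 3 and 15.1% in FD female 3. In the others they made up 13.7% to 14.5%, and the ranges did not overlap. This property was not fitted as a covariate, and its part was not tested. Reads with a single alignment that fell outside annotated genes made up 8.34% in CD female 1, 9.63% in FD female 3 and 10.5% in CD female 3, and up to 12.9% in the other 8 mice, of which FD female 1 and CD male 1 (10.4%) lay below CD female 3. Within these 8 mice the members' median and this share had Pearson's r = -0.793 (exact permutation test, p = 0.0186, adjusted 0.0368) and Spearman's rho = -0.762 (exact permutation test, p = 0.0368, adjusted 0.0368). The 8 mice were those left without the 3 with the highest medians, a choice made after seeing the data. The permutations took no account of diet or sex. Without FD female 1 and CD male 1, farthest from the median share, r was -0.544 (exact permutation test, n = 6, p = 0.272) and rho was -0.543 (exact permutation test, n = 6, p = 0.297), over fewer mice and a narrower range of the share. The share outside genes was also fitted as a covariate in the contrasts described next. It was 10.3% ± 1.33 in females (SD, n = 6) and 11.8% ± 0.933 in males (SD, n = 5). Such a fit can therefore not tell its part from that of sex.

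**Figure D3:**
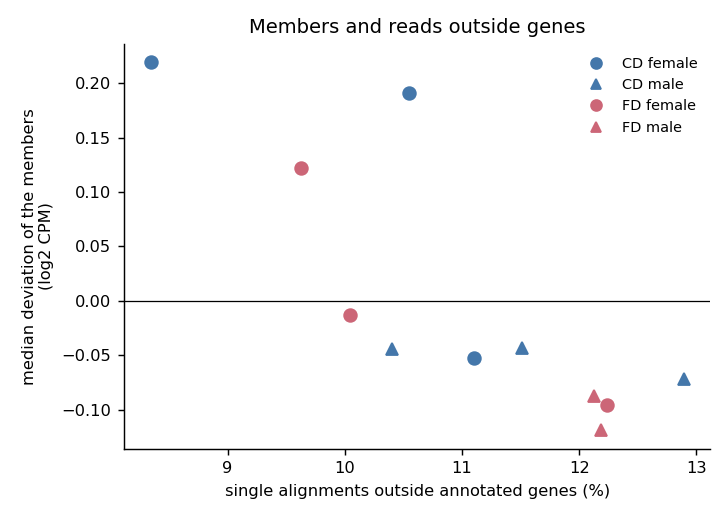
Median deviation of the 83 members in each mouse (log2 CPM) against the share of single alignments outside annotated genes (%), with diet as colour and sex as symbol. The 3 females at 0.22, 0.19 and 0.12 lie above the other 8 mice.

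Markers of other cell types were also summed in each mouse. The 6 oligodendrocyte markers summed to 5007, 6238 and 5129 CPM in CD female 1, CD female 3 and FD female 3, and to between 3885 and 5160 CPM in the others. The 7 neuron markers summed to 12240, 12290 and 12710 CPM in these 3 mice and to between 11130 and 12300 CPM in the others. The 6 astrocyte markers summed to 4306, 3988 and 4373 CPM in these mice and to between 4474 and 4768 CPM in the others, and the 6 endothelial and mural markers to 196, 217.4 and 206.8 CPM against 227.5 to 269.3 CPM. The 6 microglia markers (216.8 to 255.3 CPM), the 6 choroid plexus markers (30.7 to 89.5 CPM) and the 5 blood markers (11.6 to 55.3 CPM) did not separate these mice. The part of cell composition in the results was not tested, and in bulk tissue fewer cells of a type and less RNA per cell cannot be told apart.

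Whether the maternal diet was followed by a different expression of the respiratory chain in the offspring was tested with edgeR's quasi-likelihood test over all genes. No member passed the adjusted p-value threshold of 0.1, and the smallest adjusted p-value of a member was 1. Among all genes 14 of 20589 passed (0.068%), all of them higher in FD and none of them a member. At an unadjusted p under 0.05, 2 members were lower in FD (0.661% of all genes were) and 1 was higher (1.93% of all genes were). DESeq2 also put 0 members past the threshold, with 2 lower and 1 higher at an unadjusted p under 0.05. No member had all FD mice below or all FD mice above all CD mice, against 0.102% and 0.403% of all genes.

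The fold changes were small and mostly negative. Of the 83 members 73 had a lower and 10 a higher estimate in FD, with a median log2 fold change of -0.07 (all genes: 51.8% lower, median -0.00). The median was -0.08 in complex I, -0.05 in complex II, -0.08 in complex III, -0.07 in complex IV and -0.06 in complex V. All 4 members of complex II and all 8 of complex III had a lower estimate, as did 32 of 37 in complex I, 15 of 17 in complex IV and 14 of 17 in complex V. The members moved together over mice, so these estimates are not independent of each other. The median was -0.02 without CD female 1, CD female 3 and FD female 3, and -0.04 with the share of reads outside genes as a covariate. In either fit 0 members passed the threshold. The mice left out were picked for their high members and are mostly CD, so that choice by itself shrinks the difference. The replicate block, in which mice of the same sex and number form a pair, put 0 members past the threshold but moved the count at an unadjusted p under 0.05 to 24 lower and 0 higher (2.65% of all genes were lower in that fit). Its smallest adjusted p-value among the members was 0.123, for Uqcrq. The members' median deviation was lower in the FD mouse than in the CD mouse in 5 of 5 pairs, by 0.23 for female 1 and by 0.04 to 0.07 for the others, and so was the summed level. CD male 3 has no partner, and leaving out the 3 mice breaks the pairs female 1 and female 3.

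**Figure D4:**
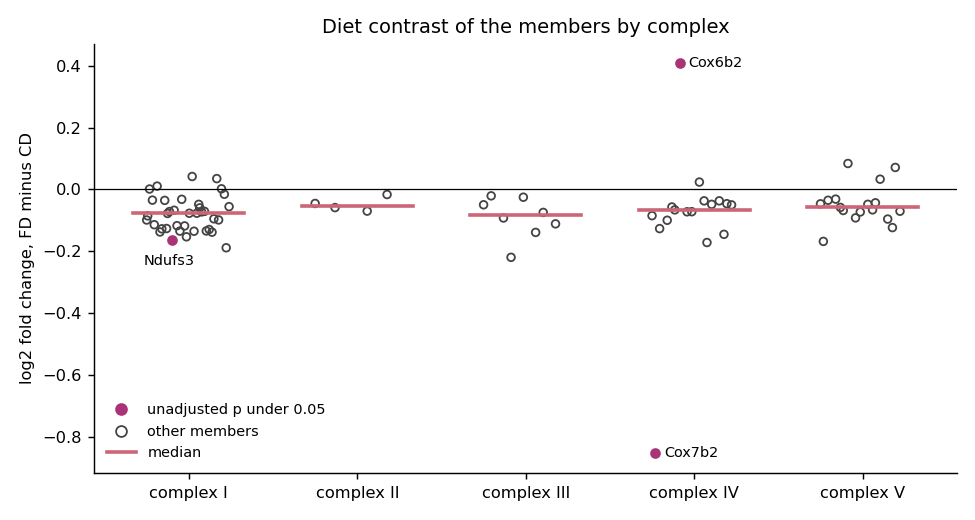
Log2 fold change of each member between FD and CD F1 mice (edgeR), by complex, with the median of each complex as a bar and filled points for an unadjusted p under 0.05. Most points lie between 0 and -0.2, and Cox6b2 (0.41) and Cox7b2 (-0.85) lie apart.

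In complex I the smallest p-value was that of Ndufs3, a core subunit of the arm that faces the matrix. Its level was 36.0 to 46.3 CPM in CD F1 mice, with a median of 37.4, and 34.7, 36.3, 33.4, 32.0 and 39.0 CPM in FD F1 mice (female 1, male 1, female 2, male 2 and female 3). Only FD male 1 and FD female 3 reached the CD range. The log2 fold change was -0.16 (SE 0.0734, adjusted p = 1, edgeR), and 35.81% of its windows have a copy. Ndufb5, an accessory subunit of the membrane arm, had 85.2 ± 8.75 CPM in CD and 77.8 ± 6.92 CPM in FD (log2 fold change -0.13, SE 0.0732), and Ndufa3, another accessory subunit, 62.5 ± 7.27 and 56.8 ± 5.91 CPM (-0.13, SE 0.0818). Of the core subunits, Ndufs1 had 180 ± 13.3 and 176 ± 5.05 CPM and Ndufv1, which binds NADH, 154 ± 18.9 and 145 ± 13.7 CPM.

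In complex II the log2 fold changes lay between -0.07 and -0.02. Sdha had 456 to 540 CPM in CD F1 mice, with a median of 486, and 472, 473, 451, 476 and 497 CPM in FD F1 mice, which overlapped (log2 fold change -0.05, SE 0.0517). Sdhb, the iron-sulfur subunit, had 110 ± 8.35 and 105 ± 7.80 CPM (log2 fold change -0.07, SE 0.0614), and Sdhc, a membrane anchor, 93.0 ± 8.39 and 89.3 ± 7.26 CPM (-0.06, SE 0.0671).

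In complex III the smallest p-value was that of Uqcrq, a small subunit that helps to bind ubiquinone. Its level ranged from 36.7 to 62.6 CPM in CD F1 mice, with a median of 46.2, and was 49.1, 35.4, 35.9, 30.8 and 53.8 CPM in FD F1 mice. The groups overlapped, and the highest values were those of CD female 3, CD female 1 and FD female 3. The log2 fold change was -0.22 (SE 0.147, adjusted p = 1, edgeR). Uqcrc1, a core protein, had 211 ± 23.0 CPM in CD and 195 ± 19.0 CPM in FD, Uqcrh, the hinge protein, 116 ± 9.85 and 110 ± 5.89 CPM, and Uqcrfs1, the Rieske iron-sulfur protein, 104 ± 6.65 and 103 ± 6.50 CPM.

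In complex IV the 2 members at an unadjusted p under 0.05 were the rare testis forms. Cox6b2 had 1.18 to 1.75 CPM in CD F1 mice, with a median of 1.26, and 1.57, 1.67, 1.98, 2.26 and 1.99 CPM in FD F1 mice. FD female 1 and FD male 1 lay within the CD range and the other 3 above it. The log2 fold change was 0.41 (SE 0.161, adjusted p = 1, edgeR), with a total of 404 counts over all mice. Cox7b2 had 0.318 to 1.13 CPM in CD F1 mice, with a median of 0.628, and 0.494, 0.476, 0.381, 0.0707 and 0.166 CPM in FD F1 mice. Its log2 fold change was -0.85 (SE 0.381, adjusted p = 1, edgeR) on a total of 129 counts, and it had 1 count in the lowest mouse, so that counting error is a large part of its spread. Cox5b, a zinc-binding nuclear subunit, had 29.8 to 37.1 CPM in CD F1 mice, with a median of 32.6, and 32.2, 29.1, 28.6, 25.5 and 31.8 CPM in FD F1 mice (log2 fold change -0.15, SE 0.0708, adjusted p = 1, edgeR). Cox4i1 and Cox5a differed less, with 351 ± 24.9 and 331 ± 19.5 CPM for Cox4i1 and 57.5 ± 5.92 and 55.2 ± 4.97 CPM for Cox5a.

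**Figure D5:**
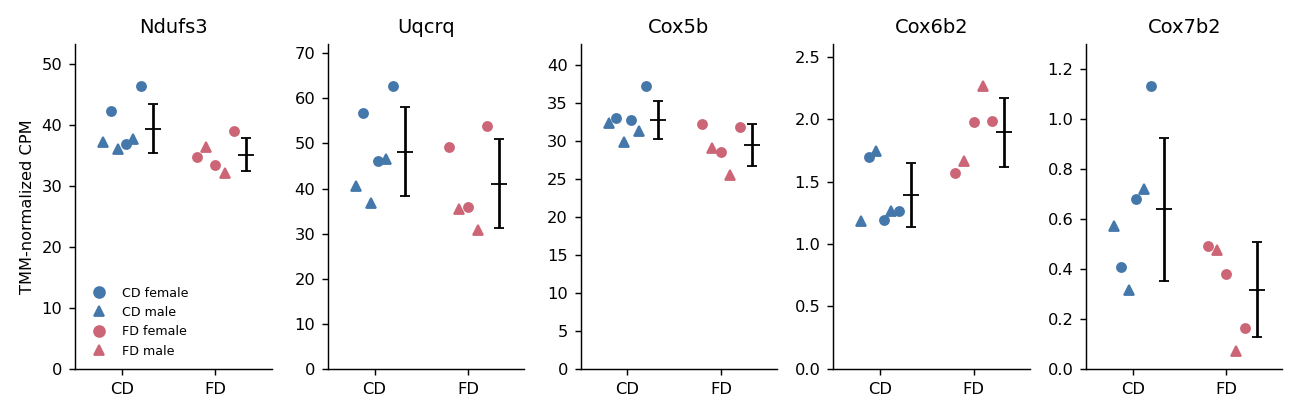
TMM-normalized CPM of Ndufs3, Uqcrq, Cox5b, Cox6b2 and Cox7b2 in each mouse, with circles for females, triangles for males and the mean ± SD of each group beside the points. The CD and FD mice overlap in each panel, as for Cox6b2 with 1.18 to 1.75 CPM in CD and 1.57 to 2.26 CPM in FD.

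In complex V no member had an unadjusted p under 0.05. The smallest was that of Atp5l, with 4.50 ± 0.620 CPM in CD and 4.04 ± 0.310 CPM in FD (log2 fold change -0.17, SE 0.112, adjusted p = 1, edgeR), followed by Atp5o, the stalk subunit known as OSCP (115 ± 8.40 and 110 ± 7.15 CPM), and Atp5j2, subunit f (93.5 ± 12.4 and 87.4 ± 8.47 CPM). The alpha subunit Atp5a1 had 931 ± 75.5 and 902 ± 52.9 CPM, a log2 fold change of -0.05 (SE 0.0593).

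Lists of related genes were compared in the same fit. Of the 13 mRNAs of the mitochondrial genome 0 passed the threshold (edgeR) and 0 had an unadjusted p under 0.05, with 9 lower and a median log2 fold change of -0.03. Of these 13, mt-Nd3, mt-Nd4l, mt-Co2, mt-Co3, mt-Atp6 and mt-Atp8 had means of only 0.131 to 1.16 CPM, so that the tally of these 6 rests on few counts. The lowest and the highest of the other 7 were mt-Nd6 (1289 CPM) and mt-Co1 (9651 CPM). Only single alignments were counted and copies of the mitochondrial mRNAs were not looked up. The values of the 6 can therefore not be read as low expression. Among 45 tested assembly factors 1 was lower at an unadjusted p under 0.05, Pet100, an assembly factor of complex IV (16.1 ± 2.08 CPM in CD, 14.0 ± 1.04 CPM in FD, log2 fold change -0.19, adjusted p = 1), and 37 had a lower estimate. The 5 subunits outside the rule had a median of -0.05, with the smallest p-value for Cyc1, cytochrome c1 (150 ± 17.6 and 141 ± 13.5 CPM, adjusted p = 1). The 12 regulators of mitochondrial gene expression had a median of 0.02, with 8 higher and 4 lower in FD. The smallest p-value was that of Polrmt, the mitochondrial RNA polymerase, which was lower (27.8 ± 1.83 and 25.2 ± 2.57 CPM, adjusted p = 1). The 16 genes of the citric acid cycle and pyruvate dehydrogenase had a median of -0.03, with 15 lower and 1 higher in FD. The 1 higher was Suclg2, a subunit of succinyl-CoA ligase, which had the smallest p-value (7.22 ± 0.847 and 8.12 ± 1.12 CPM, adjusted p = 1). For comparison, the 76 cytosolic ribosomal protein genes had a median of -0.05, with 60 lower. Of the cell type markers, 6 of 6 for choroid plexus (median -0.25), 5 of 6 for oligodendrocytes, 5 of 7 for neurons and 4 of 6 for microglia were lower in FD. Higher in FD were 5 of 6 for astrocytes, 5 of 6 for endothelial and mural cells and 5 of 5 for blood. Of these markers 0 passed the threshold, and 1 for choroid plexus was lower at an unadjusted p under 0.05 (0.661% of all genes were). Their part was not tested.

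The contrast of the sexes put members past the threshold. With diet as a covariate, 18 of the 83 members passed the threshold and all 18 were lower in males, against 3.03% of all genes lower and 3.07% higher in males (edgeR). They were 13 members of complex I, 2 of complex III, 1 of complex IV and 2 of complex V, and 80 of 83 members had a lower estimate in males (median log2 fold change -0.16, over all genes -0.00). The number of members past the threshold depended on single mice. It was 0 without CD male 1, CD female 1, CD male 2, CD female 3, FD male 2 or FD female 3. It was 3 without FD female 1, 5 without CD male 3 and 9 without FD male 1, all of them among the 18, and 35 without FD female 2 and 48 without CD female 2, which held all 18. The number of all genes past the threshold moved likewise, from 1257 to between 18 (without CD male 1) and 3244 (without CD female 2). The direction moved less, with 78 to 80 of 83 members lower in males and a median of -0.19 to -0.12 in each fit that left out 1 mouse. Without CD female 1, CD female 3 and FD female 3 together, 0 members passed, 50 were lower in males and the median was -0.02. These mice were picked for their high members and are all females, so that choice by itself shrinks the difference. With the share of reads outside genes as a covariate, 0 passed, 66 were lower and the median was -0.07. That share was itself higher on average in males, so its part and that of sex cannot be told apart. The oligodendrocyte markers moved in the same direction, with a lower estimate in males for 6 of 6 (median -0.26, 1 past the threshold and 4 at an unadjusted p under 0.05). Lower in males were also 5 of 6 microglia markers (median -0.14, 1 past the threshold) and 5 of 5 blood markers (-0.32, 0 past it). The other lists were mixed, with 4 of 7 neuron, 3 of 6 astrocyte (1 lower and 1 higher past the threshold), 4 of 6 choroid plexus and 2 of 6 endothelial and mural markers lower. The part of these lists in the result was not tested.

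Uqcrq had the largest difference between the sexes of the members past the threshold. Its level was 35.9 to 62.6 CPM in females, with a median of 51.5, and 40.5, 36.7, 46.5, 35.4 and 30.8 CPM in males (CD male 1, 2 and 3, FD male 1 and 2). The log2 fold change was -0.45 (SE 0.0965, adjusted p = 0.0621, edgeR). Ndufs7, a core subunit with the last iron-sulfur cluster of complex I, had 58.0 ± 9.29 CPM in females and 44.8 ± 6.47 CPM in males (-0.40, SE 0.0954, adjusted p = 0.0641, edgeR). Atp5e, the epsilon subunit of the ATP synthase, had 62.5 to 82.3 CPM in females, with a median of 74.3, and 59.5, 60.2, 63.1, 57.5 and 54.2 CPM in males (-0.33, SE 0.0707, adjusted p = 0.0621, edgeR).

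In 3 members all males lay below all females, against 0.729% of all genes. Ndufa12, an accessory subunit of complex I, had 25.4 to 30.4 CPM in females, with a median of 26.6, and 24.8, 24.5, 23.8, 22.5 and 21.9 CPM in males (-0.24, SE 0.0551, adjusted p = 0.0638, edgeR). Cox6c, a nuclear subunit of complex IV, had 104 to 132 CPM in females, with a median of 112, and 101, 102, 97.0, 103 and 102 CPM in males (-0.19, SE 0.0599, adjusted p = 0.0932, edgeR). Ndufs5 had 7.94 to 9.44 CPM in females, with a median of 8.61, and 7.70, 7.84, 7.59, 7.62 and 7.0 CPM in males, and did not pass the threshold (adjusted p = 0.183, edgeR). The other members past the threshold were Ndufa2, Ndufa5, Ndufa6, Ndufa7, Ndufa11, Ndufb5, Ndufb7, Ndufb11, Ndufc1, Ndufs8 and Ndufv3 of complex I, Uqcr11 of complex III and Atp5d of complex V.

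In the related lists, 4 of 45 assembly factors (Ndufaf3, Bcs1l, Cox14 and Coa3), 1 of 13 mitochondrial mRNAs (mt-Nd2) and 1 of 5 subunits outside the rule (Atpif1) were lower in males at the threshold, against the 3.03% of all genes given above. The 6 mitochondrial mRNAs with few counts were not among those past the threshold. Among the regulators, Ppargc1b, a coactivator of mitochondrial genes, was higher in males (log2 fold change 0.51, SE 0.158, adjusted p = 0.0932, edgeR). Against 3.03% of all genes lower and 3.07% higher, 9 of the 76 cytosolic ribosomal protein genes were lower and 1 was higher in males, with a median of -0.11. These calls come from the same fit, in which the number of all genes past the threshold was 9 with the share outside genes as a covariate.

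Whether the diet contrast differed between males and females was tested as an interaction. No member passed the threshold (edgeR and DESeq2) and no member had an unadjusted p under 0.05, against 1.9% of all genes. The smallest p-values were those of Uqcrh (interaction 0.18 on the log2 scale), Cox6c (0.18) and Ndufa2, an accessory subunit (0.20), with an adjusted p of 1 each. The median log2 fold change of the members was -0.11 in females alone and -0.04 in males alone, where 2 FD mice were compared with 3 CD mice.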

How the data were processed

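Hippocampal RNA was sequenced as single-end reads of 50 bases, and the authors trimmed them, aligned them with STAR to mm10 (GRCm38) and counted unique alignments per gene with featureCounts. The deposited values are raw counts per gene, 1 table per mouse. Their summary lines (no feature, ambiguous, alignment not unique) have the form written by HTSeq, which the study's methods do not name. The program that wrote the deposited counts is therefore uncertain. Strand setting and annotation release are not given in the sources used here. Without strand, reads of a member and of an overlapping gene cannot be told apart; exons of 29 members overlap those of another gene, in 11 over at least 10% of their bases. Summary lines for reads outside genes were kept out of library sizes. These reads made up 8.34% to 12.9% of single alignments. The sum over genes was 11737554 in the smallest library and 44447006 in the largest, and 3 counts are worth 0.256 and 0.0675 CPM there.

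Genes with at least 10 counts in total were fitted with edgeR 4.0.16 in R 4.3.3 (TMM, quasi-likelihood test, diet alone, Benjamini-Hochberg adjustment, threshold 0.1). Sex (with diet as covariate) and the interaction were fitted likewise. SE is the log2 fold change divided by the square root of F, and log2 CPM used a prior count of 2. Alternatives were DESeq2 1.42.0, RLE factors, count filters, sex as covariate, each sex alone, the replicate block and each mouse left out. A covariate for reads outside genes and leaving out 3 mice together were chosen after seeing the data. So were the correlation of that share with the members' median and the list of ribosomal protein genes. The scripts were tested on simulated counts. The members, lists and named genes (per complex the 3 smallest p-values in the diet contrast and the highest level, members past a threshold, paralogs, core subunits) were chosen with earlier results of these data known. Gene names, exon lengths and transcripts came from GENCODE M21, which held 94.9% of the genes in the tables. Copies were looked up in annotated transcripts only.

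The labels give sex and replicate number, which define 5 pairs of 1 CD and 1 FD mouse. Deviations from the diet means over 14524 genes correlated within each pair (r = 0.391, 0.325, 0.417, 0.307 and 0.533). The partner was the FD mouse with the highest correlation for CD male 2, CD female 2 and CD female 3. For CD male 1 and CD female 1 another FD mouse correlated more. The pairs also share a sex, whose part in this was not tested. The sources used here do not say whether equal numbers mark a shared litter or batch. The unpaired fit is the main one, since the study's methods name no block.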

Additional observations from a re-analysis of the deposited data

Results flagged for a closer look

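Single mice of the 5 or 6 of a group lay far from the rest for 4 of the values examined, by the gap to the nearest other mouse over the whole range of the group. CD female 1 had 5.72 CPM of Atp5l against a CD median of 4.22. FD female 3 had 118.6 CPM of Cox6c, 101.8 CPM of Sdhc and 114.1 CPM of Uqcrfs1, above the other 4 FD mice. In all, 118 groups of values were examined, and chance alone flags about 1 in 20. Both mice are among the 3 in which most members were high together.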

How the results depend on the processing

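In the diet contrast 0 members passed the threshold in any fit run, and the replicate block changed no call of a member. The count of all genes past the threshold was 14, and 1 with at least 10 counts in every mouse, 8 with filterByExpr, 25 with the replicate block, 1 in females alone, 2 in males alone, 22 with the share outside genes as covariate and 4 without the 3 mice together. Members lower at an unadjusted p under 0.05 numbered 2, and 1 with at least 10 counts in every mouse or filterByExpr, 8 with sex as covariate, 24 with the replicate block, 1 in females alone and 0 without the 3 mice. Members higher numbered 1, and 0 with the replicate block and in each sex alone. Leaving out single mice gave 3 to 12 genes past the threshold, 0 to 9 members lower (9 without FD female 3), 0 to 1 higher, and a median of -0.11 (without FD female 3) to -0.03 (without CD female 1). The share of all genes lower at an unadjusted p under 0.05 was taken only for the main fit (0.661%) and the replicate block (2.65%). Counts of members in the other fits can therefore not be set against all genes.

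Between the sexes, 1257 genes and 18 members passed the threshold, with DESeq2 2043 and 28, with the share outside genes as covariate 9 and 0, and without the 3 mice 13 and 0 (median -0.023). Leaving out single mice gave 18 to 3244 genes, 0 to 48 members and medians of -0.19 to -0.12. For the interaction it gave 0 to 1 genes and 0 members.

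Estimates of some members not past the threshold changed sign. In females alone these were Atp5g1 (-0.011) and Cox4i2 (0.071), and in males alone Cox6b1 (0.006), Cox7a1 (-0.245), Ndufa4 (0.0017), Ndufs1 (0.016), Sdha (0.0055), Uqcrfs1 (0.0066) and Uqcrh (0.038). Cox7a1 was -0.068 with sex as covariate and -0.144 with the replicate block. Leaving out single mice gave -0.111 to 0.384 for Atp5g2, -0.13 to 0.074 for Cox4i2, -0.205 to 0.168 for Cox7a1, -0.33 to 0.244 for Cox8b and -0.062 to 0.014 for Uqcrfs1. The causes were not tested. Levels per 1000 single windows in place of exon length put Atp5b first (663), with Cox8a at 380.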
